A study of Danio rerio with 6 samples.

Results

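The hox genes of paralogue groups 9 and 10 were examined in cells labelled as endothelial, sorted from zebrafish trunks at 22 hours post fertilization (hpf). All embryos came from a cross carrying a pair of reporters, NFKB:d2eGFP, which makes a short-lived green protein from an NF-kB-responsive promoter, and kdrl:mCherry, which makes a red protein from the promoter of a VEGF receptor gene. NFKB+ cells were kdrl+ and positive for the NF-kB reporter, and NFKB- cells were kdrl+ and negative for it. There were 3 libraries of each sort, with about 7000 cells per sample. The labels call them biological replicates, without saying whether each came from its own pool of embryos; if not, the errors given here are technical. No gene was perturbed. The genes were chosen by name, as rows of the deposited table with the pattern hox, cluster letter, number 9 or 10, and a or b. Earlier results of these data were known when this rule was set. The rule found 9 genes among the 23 hox genes and 2471 genes analysed. They were hoxa9a, hoxa9b, hoxb9a, hoxc9a and hoxd9a of group 9, and hoxa10b, hoxb10a, hoxc10a and hoxd10a of group 10.

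Hox genes encode transcription factors that bind DNA through a homeodomain, and they lie in clusters whose gene order follows the order of their expression domains along the body axis. Groups 9 and 10 belong to the posterior genes related to Abdominal-B of Drosophila, and their products bind DNA with cofactors of the PBX and MEIS families. The teleost genome duplication left a and b copies of several clusters, which is why zebrafish have both hoxa9a and hoxa9b. In mouse and human, HOXA9 and HOXA10 act in blood stem and progenitor cells, and in zebrafish hoxa9a has been used to restore blood formation in embryos that lack the caudal-type factor cdx4.

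Transcripts of all 9 genes were higher in NFKB+ than in NFKB- cells. Their log2 differences, NFKB+ minus NFKB-, ranged from 1.60 for hoxc10a to 3.09 for hoxa9b, with a median of 2.44, which is 5.42-fold. The median over all 2471 genes was 1.08, and that over the 1347 genes that were higher in NFKB+ cells was 1.48. The deposited table holds only genes that the authors had already found to differ between these 6 libraries, by at least 2-fold at an adjusted p of 0.01. A limma fit over the table therefore called 100% of its genes at adjusted p 0.05, with 54.5% called higher and 45.5% called lower in NFKB+ cells, and the 9 calls among these hox genes are no evidence of their own. For this reason the values below are a description, given with standard errors and without the p-values of this fit. Calls under other scalings are given only to show which values depend on the scaling. The sorted cells of a library were measured in bulk, so more cells with a transcript and more transcript per cell cannot be told apart.

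Markers of the labelled cell type were present in both sorts, together with blood markers. Of 31 pan-endothelial genes listed, 21 were in the table. The median log2 difference of these 21 was 1.57, and 20 of them lay above 0. Their summed normalized reads ranged from 761116 to 788223 in NFKB+ and from 248979.8 to 320722 in NFKB- libraries. Normalized reads of kdrl itself ranged from 32958 to 34799 in NFKB+ and from 13124 to 17990.2 in NFKB- libraries. Globin genes took 7.34% ± 0.588 of the table's normalized reads in NFKB+ and 39.1% ± 2.90 in NFKB- libraries (SD, n = 3 each). All 17 erythroid and 19 myeloid genes found in the table, of 21 and 22 listed, were lower in NFKB+ cells, with medians of -2.76 and -3.35. Summed normalized reads of the erythroid genes ranged from 729142 to 885619 in NFKB+ and from 5167031 to 7183158 in NFKB- libraries. Those of the myeloid genes ranged from 15317 to 18873 in NFKB+ and from 168858 to 209028 in NFKB- libraries. None of the listed genes in the table was at 0 in any library. The part of these blood and endothelial differences in the hox differences was not tested.

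Among the group 9 genes, hoxd9a had the smallest standard error. It had 3795, 3548 and 3627 normalized reads in NFKB+ libraries, against 533, 596 and 521 in NFKB- libraries. The groups did not overlap, and libraries within a sort lay close together. Its log2 difference was 2.73 ± 0.12 (SE), or 6.65-fold.

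The duplicates hoxa9a and hoxa9b, from the HoxAa and HoxAb clusters, were both higher in NFKB+ cells. For hoxa9a the normalized reads were 2129, 2499.5 and 2139.6 in NFKB+ libraries, against 353, 380.4 and 376 in NFKB- libraries. NFKB+ library 2 was the highest, no values overlapped between the sorts, and the log2 difference was 2.60 ± 0.14 (SE). For hoxa9b they were 1101, 1003 and 1062 in NFKB+ libraries, against 166, 125 and 89.3 in NFKB- libraries. The NFKB+ libraries agree within a CV of 4.67%, while the NFKB- libraries spread over a CV of 30.3%. At 3.09 ± 0.23 (SE), or 8.54-fold, hoxa9b had the largest difference of the 9 genes and rank 28 of all 2471. Without NFKB- library 6 its log2 difference was 2.87.

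In the HoxBa and HoxCa clusters, the group 9 genes differed less between the sorts. In mouse, Hoxc9 sets thoracic motor neuron identity, and in human endothelium HOXC9 has been linked to vascular quiescence. For hoxc9a the normalized reads were 2455, 2479 and 2626 in NFKB+ libraries, against 569.8, 606 and 339.9 in NFKB- libraries. NFKB- library 6 stood below the other NFKB- libraries, and the sorts did not overlap. The log2 difference was 2.36 ± 0.19 (SE), and 2.10 without that library. For hoxb9a the normalized reads were 992, 1049 and 908 in NFKB+ libraries, against 212, 144 and 242 in NFKB- libraries. Here NFKB- library 5 was the lowest, the sorts again did not overlap, and the log2 difference was 2.33 ± 0.21 (SE), or 5.02-fold.

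Of the group 10 genes, hoxd10a had the largest difference and the closest replicates. In human endothelial cells HOXD10 has been described as a brake on vessel growth. Its normalized reads were 2999.7, 2944 and 2907 in NFKB+ libraries, against 359, 386 and 391 in NFKB- libraries. The sorts were far apart, and the CV over libraries was 1.58% in NFKB+ and 4.60% in NFKB- cells, below the 1.74% and 5.27% that read counting alone would give. The log2 difference was 2.96 ± 0.13 (SE), or 7.78-fold.

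The remaining group 10 genes had fewer reads and smaller differences. For hoxa10b, whose mouse counterpart takes part in patterning of the lumbar spine and in blood formation, the normalized reads were 814, 874 and 982 in NFKB+ libraries, against 206, 224 and 184 in NFKB- libraries. The sorts did not overlap, and the log2 difference was 2.11 ± 0.18 (SE). For hoxb10a, a group 10 gene of the HoxB cluster that mammals lack, they were 616, 508 and 704 in NFKB+ libraries, against 97.0, 103 and 136 in NFKB- libraries. NFKB+ library 2 was the lowest of its sort and still above every NFKB- library, and the log2 difference was 2.44 ± 0.23 (SE).

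The lowest read counts and the smallest difference belonged to hoxc10a. Its normalized reads were 187, 179.8 and 222 in NFKB+ libraries, against 77.8, 92.0 and 36.0 in NFKB- libraries. These rest on 150 to 346 reads in NFKB+ and 33 to 96 reads in NFKB- libraries. NFKB- library 6 was less than both other NFKB- libraries, and the sorts did not overlap. The log2 difference was 1.60 ± 0.35 (SE), or 3.03-fold, and it was 1.198 without NFKB- library 6. In the authors' deposited table it was 1.41, the lowest of the 9 genes there too, against 3.00 for hoxa9b, the highest.

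**Figure D1:**
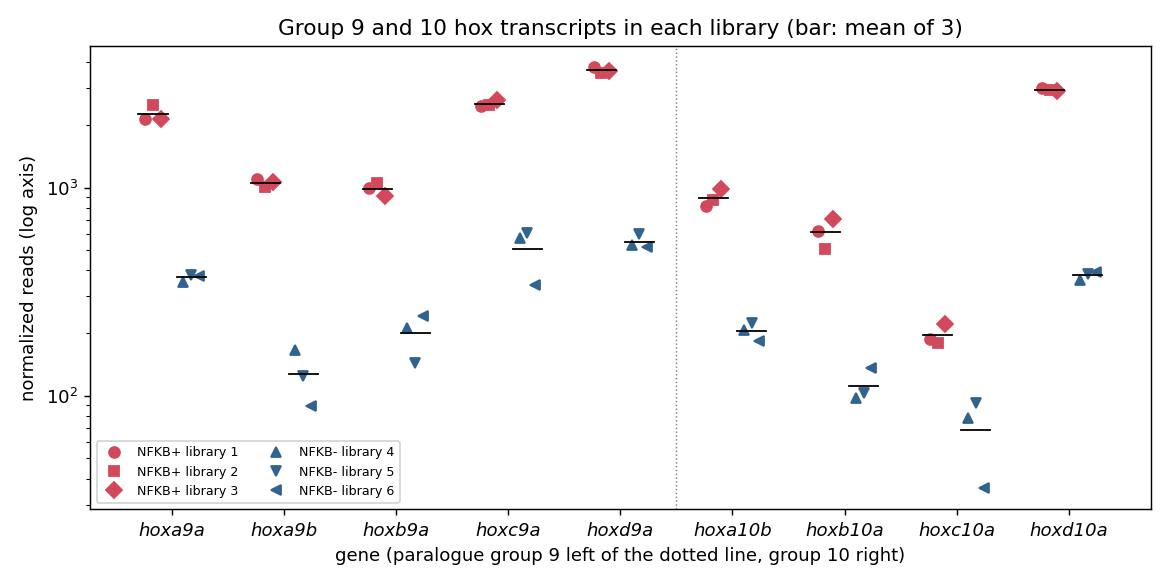
Normalized reads (log axis) of the 9 group 9 and 10 hox genes in 3 NFKB+ libraries (red) and 3 NFKB- libraries (blue), with a black bar at the mean of each sort. For each gene the NFKB+ libraries sit above the NFKB- libraries, from 2999.7, 2944 and 2907 against 359, 386 and 391 for hoxd10a to 187, 179.8 and 222 against 77.8, 92.0 and 36.0 for hoxc10a.

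None of the 9 genes had overlapping sorts. The same held for 99.6% of the table's genes, 54.3% with the NFKB+ libraries on top. A log2 difference of 2 or more was reached by 8 of the 9, and by 9.43% of all genes in that direction. These shares follow from how the table and the genes were chosen. Over the 9 genes together the summed normalized reads were 15088, 15085 and 15178 in NFKB+ libraries, against 2573, 2656 and 2315 in NFKB- libraries. The ratio of the means was 6.01. It was 5.98 for the 5 group 9 genes alone and 6.08 for the 4 group 10 genes alone.

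Groups 9 and 10 were listed in full, but so were groups 7 and 12. All 9 genes that RefSeq annotates in groups 9 and 10 were in the table. It held 6 of 26 (23.1%) in groups 1 to 8 and 8 of 14 (57.1%) in groups 11 to 13. Taken singly, group 7 had 1 of 1, group 11 had 4 of 5, group 12 had 3 of 3 and group 13 had 1 of 6. Of all 27039 RefSeq protein-coding genes, 2433 were in the table. A gene outside the table may have missed the authors' limits or had too few reads, and this was not analysed here. The hox genes of groups 1 to 8 in the table had a median log2 difference of 1.56, and those of groups 11 to 13 one of 2.52, beside 2.60 for group 9 and 2.28 for group 10. The 6 genes of groups 1 to 8 ranged widely, from -1.66 to 2.86. A log2 difference of 2 or more was reached by 2 of these 6, hoxb7a at 2.86 ± 0.15 and hoxd3a at 2.23 ± 0.28 (SE). Large differences were thus not limited to the posterior groups. The single hox gene on the other side was hoxb1a, of the anterior group 1, with a log2 difference of -1.66 ± 0.48 (SE). Its normalized reads were 59.2, 15.6 and 38.5 in NFKB+ libraries, against 168, 70.9 and 100.2 in NFKB- libraries. The largest fitted value among the hox genes was 4.55 ± 0.81 (SE) for hoxc12a, which had 29.1, 49.1 and 45.6 normalized reads in NFKB+ libraries, against 4.51, 0 and 0 in NFKB- libraries.

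**Figure D2:**
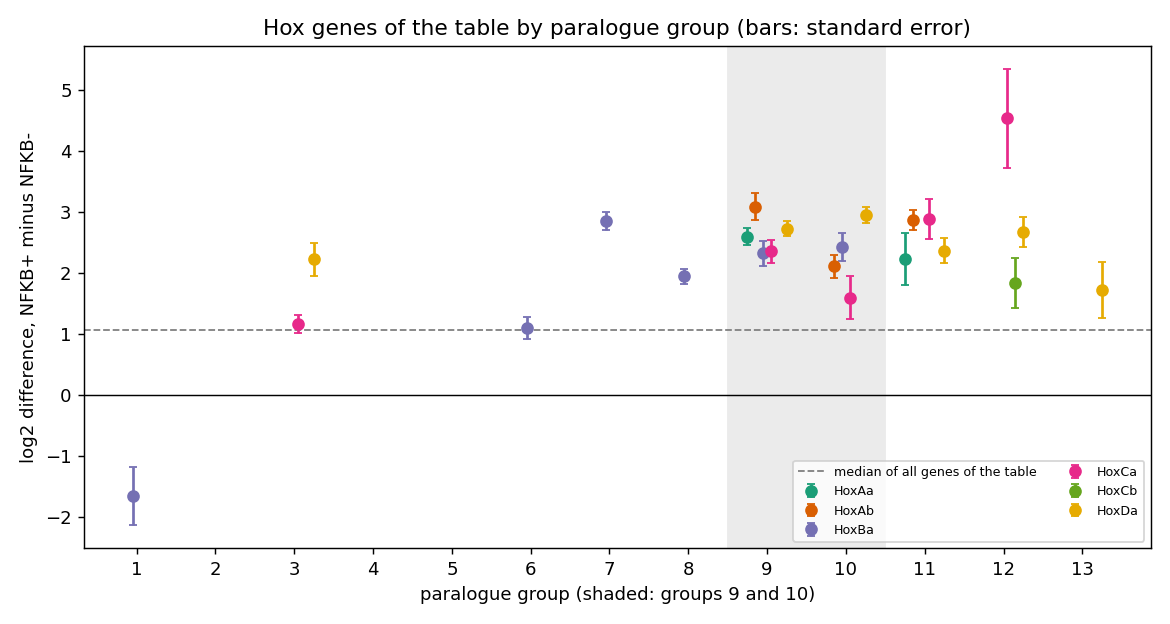
Log2 difference (NFKB+ minus NFKB-) with its standard error for the 23 hox genes of the table, by paralogue group and coloured by cluster; the dashed line is the median of all genes, 1.08. The shaded group 9 and 10 genes lie between 1.60 and 3.09, and hoxb1a at -1.66 is the one hox gene below 0.

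Cluster neighbours of these genes were followed in the RefSeq gene order. In the HoxDa cluster, hoxd9a and hoxd10a at 2.73 and 2.96 were flanked by hoxd11a at 2.37 ± 0.21 (SE), while the neighbour on the other side, hoxd4a, was not among the genes analysed. In the HoxAb cluster, hoxa9b and hoxa10b at 3.09 and 2.11 were followed by hoxa11b at 2.87 ± 0.16 (SE). The value of hoxa10b thus lay below those of both of its neighbours. In the HoxBa cluster, hoxb10a and hoxb9a at 2.44 and 2.33 were followed by hoxb8a at 1.95 ± 0.12 (SE). In the HoxCa cluster, hoxc10a at 1.60 had hoxc11a at 2.89 ± 0.33 (SE) on one side. On the other side lay hoxc9a at 2.36 and hoxc3a at 1.17 ± 0.15 (SE). Sorting by the start of the gene models put hoxc3a between hoxc10a and hoxc9a, so this order shows no stepwise change along the cluster. The next listed neighbour of hoxa9a in the HoxAa cluster, hoxa11a, had 2.23 ± 0.42 (SE). Like hoxd4a, the neighbours hoxb13a of hoxb10a, hoxa2b of hoxa9b, hoxa3a of hoxa9a and hoxc8a of hoxc9a were not among the genes analysed. In RefSeq the gene models of hoxc9a and hoxc3a overlap, and a long noncoding gene overlaps both hoxa9b and hoxa10b. The models evx1 and mir196a-2 overlap hoxa9a. No label says that the libraries were stranded, and reads in shared stretches could have been left out or assigned to either gene. These overlaps are of GRCz12tu models, and the authors' build was danRer10.

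The make-up of the group 9 and 10 transcripts differed between the sorts for some genes. Shares of the 9 genes' summed normalized reads compare each gene with itself across libraries. They do not rank genes, since transcript lengths were not used. Within a library the shares add up to the whole, so a higher share of some genes lowers that of others. The share of hoxd10a was 19.9%, 19.5% and 19.2% in NFKB+ libraries, against 13.9%, 14.5% and 16.9% in NFKB- libraries. It was higher in each NFKB+ library than in any NFKB- library. The share of hoxa9b was likewise higher in NFKB+ cells, with a mean of 6.98% ± 0.324 in NFKB+ and 5.00% ± 1.32 in NFKB- libraries (SD, n = 3 each), without overlap. That of hoxd9a was 24.2% ± 0.854 in NFKB+ and 21.9% ± 1.02 in NFKB- libraries (SD, n = 3 each), also without overlap. The shares of hoxa10b and hoxc10a were lower in every NFKB+ library. For hoxa10b they averaged 5.88% ± 0.543 in NFKB+ and 8.14% ± 0.264 in NFKB- libraries (SD, n = 3 each). For hoxc10a they averaged 1.30% ± 0.145 in NFKB+ and 2.68% ± 1.00 in NFKB- libraries (SD, n = 3 each). The hoxc10a sorts nearly touched, at 1.46% in NFKB+ library 3 and 1.55% in NFKB- library 6, the latter from 33 reads. The shares of hoxa9a, hoxb9a, hoxc9a and hoxb10a overlapped between the sorts. Group 10 as a whole held 30.7% ± 0.933 in NFKB+ and 30.4% ± 1.77 in NFKB- libraries (SD, n = 3 each), which is within the spread of the libraries.

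Read within single libraries, the group 10 gene of a cluster was set over its group 9 neighbour. The ratio of hoxa10b to hoxa9b was 0.739, 0.871 and 0.924 in NFKB+ libraries, against 1.24, 1.80 and 2.06 in NFKB- libraries. Each NFKB+ ratio was thus below each NFKB- ratio, and below 1, where each NFKB- ratio was above 1, on a scale of reads that does not take out transcript length. The NFKB- ratios rest on 82 to 147 reads of hoxa9b. The ratio of hoxc10a to hoxc9a was 0.0761, 0.0725 and 0.0845 in NFKB+ libraries, against 0.137, 0.152 and 0.106 in NFKB- libraries, again without overlap. These NFKB- ratios rest on 33 to 96 reads of hoxc10a. The ratio of hoxd10a to hoxd9a went the other way, at 0.790, 0.830 and 0.802 in NFKB+ libraries, against 0.674, 0.648 and 0.751 in NFKB- libraries. For hoxb10a over hoxb9a the sorts overlapped, at 0.627 ± 0.146 in NFKB+ and 0.578 ± 0.129 in NFKB- libraries (SD, n = 3 each). The duplicates hoxa9b over hoxa9a overlapped as well, at 0.472 ± 0.0618 in NFKB+ and 0.345 ± 0.117 in NFKB- libraries (SD, n = 3 each). With 3 libraries a sort, an exact two-sided permutation test cannot go below p = 0.1, and these ratios come from the contrast that chose the genes, so none was tested. A ratio within a library does not depend on how the libraries were scaled.

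**Figure D3:**
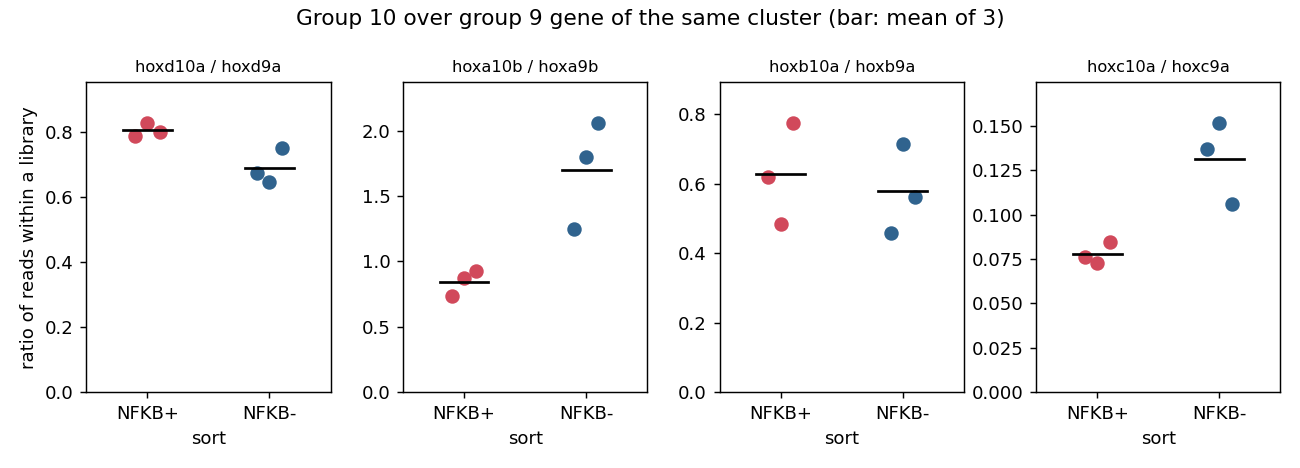
Ratio of normalized reads of the group 10 gene to the group 9 gene of the same cluster in each library, NFKB+ left and NFKB- right, with a bar at the mean of 3 libraries. The hoxa10b to hoxa9b ratio was 0.739 to 0.924 in NFKB+ and 1.24 to 2.06 in NFKB- libraries, and the hoxb10a to hoxb9a ratio overlapped between the sorts.

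Within a sort the 9 genes did not go up and down as one, a measure that does not use the difference between the sorts. The correlation of log2 deviations from the sort mean over the 6 libraries had a median of -0.13 over the 36 pairs of these genes, beside 0.02 over all pairs of genes in the table. The pairs ranged from -0.89 for hoxb9a with hoxd9a to 0.99 for hoxc9a with hoxc10a. These share the libraries and have few degrees of freedom, and they are given as a description. The HoxCa pair moved together in the NFKB- libraries, with deviations of 0.22, 0.31 and -0.53 for hoxc9a and of 0.29, 0.52 and -0.81 for hoxc10a in libraries 4, 5 and 6. For hoxc11a and hoxc3a of the same cluster the deviations were -0.81, 0.23 and 0.57 and -0.08, 0.12 and -0.03. The values of hoxc11a and hoxc10a rest on few reads, with 28, 69 and 77 for hoxc11a and 69, 96 and 33 for hoxc10a. Reads were more for hoxc9a, at 505, 633 and 312, and for hoxc3a, at 433, 586 and 465. Counting error was not separated from a difference between the genes. Across all genes the median deviation of library 6 was 0.01.

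**Figure D4:**
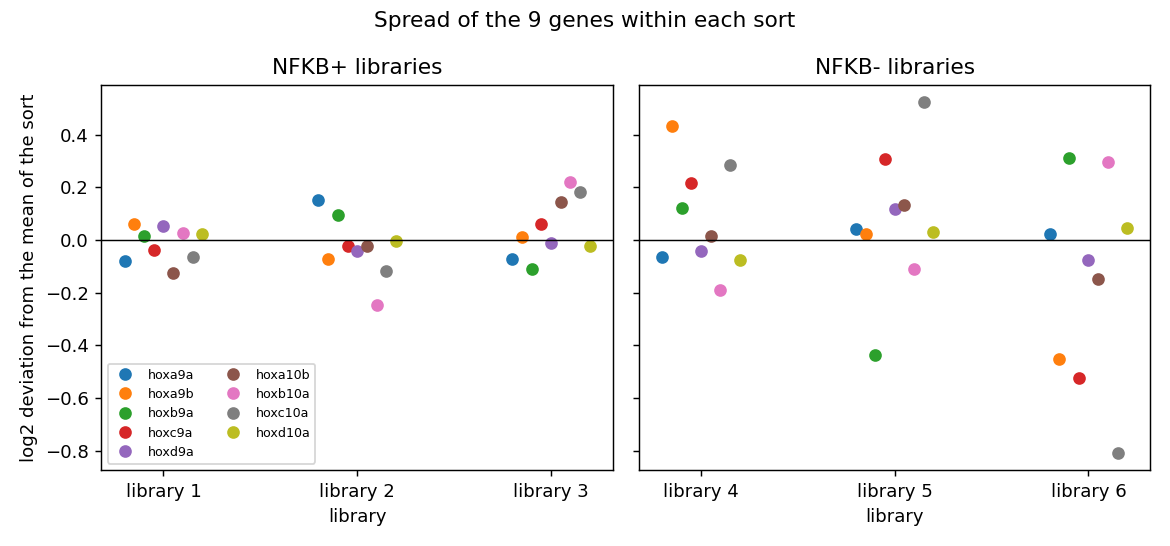
Log2 deviation of each of the 9 genes from the mean of its sort, by library, NFKB+ left and NFKB- right. The points lie between -0.25 and 0.22 in NFKB+ libraries and between -0.81 and 0.52 in NFKB- libraries, where hoxc10a and hoxc9a are lowest in library 6.

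The spread between libraries was larger in NFKB- cells for 8 of the 9 genes, and for 64.9% of all genes. The exception was hoxa9a, whose log2 values had an SD of 0.13 among the NFKB+ and 0.06 among the NFKB- libraries. The median log2 SD over the 9 genes was 0.10 in NFKB+ and 0.26 in NFKB- libraries, beside 0.14 in NFKB+ and 0.20 in NFKB- libraries over all genes. Reads per gene and library ranged from 150 to 5653 in NFKB+ and from 33 to 633 in NFKB- libraries, so counting error is the larger in NFKB- cells. The CV over libraries was above that of counting alone for 8 of the 9 genes in NFKB+ and for 7 in NFKB- libraries. The share over all genes is not given, so this count does not set the 9 genes apart. In NFKB- libraries the CV was 28.6% against 4.55% from counting for hoxc9a, and 3.95% against 5.33% for hoxa9a. The cause of the wider spread was not tested.

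Set against kdrl or the median of the pan-endothelial list, the hox excess was smaller. Per 100 kdrl reads, the summed normalized reads of the 9 genes were 45.2, 43.3 and 46.1 in NFKB+ libraries, against 14.3, 19.9 and 17.6 in NFKB- libraries. The sorts stayed apart, with a ratio of means of 2.60 in place of 6.01. After scaling each library to the median of the pan-endothelial list, the median log2 difference of the 9 genes was 0.89, while that of all genes was -0.48. Only the 21 listed genes in the table could set this scaling, and each had passed the authors' 2-fold limit on this contrast. Endothelial genes that differed by less could not enter, so the size of the shift depends in part on that limit. The values were then 1.54 for hoxa9b, 1.40 for hoxd10a, 1.18 for hoxd9a and 1.05 for hoxa9a. They were 0.89 for hoxb10a, 0.80 for hoxc9a, 0.77 for hoxb9a, 0.56 for hoxa10b and 0.06 ± 0.35 (SE) for hoxc10a. Under this scaling hoxc10a lay within its standard error of 0 and was no longer called. The other 8 genes were called higher, as were 7.32% of all genes under this scaling. With median ratios over the table, 8 of the 9 genes and 37.2% of all genes were called higher. These calls, too, come from the contrast on which the genes were chosen. Venous and lymphatic genes, 12 of 13 listed being in the table, had a median of 2.23 under the authors' scaling, all 12 higher in NFKB+ cells.

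**Figure D5:**
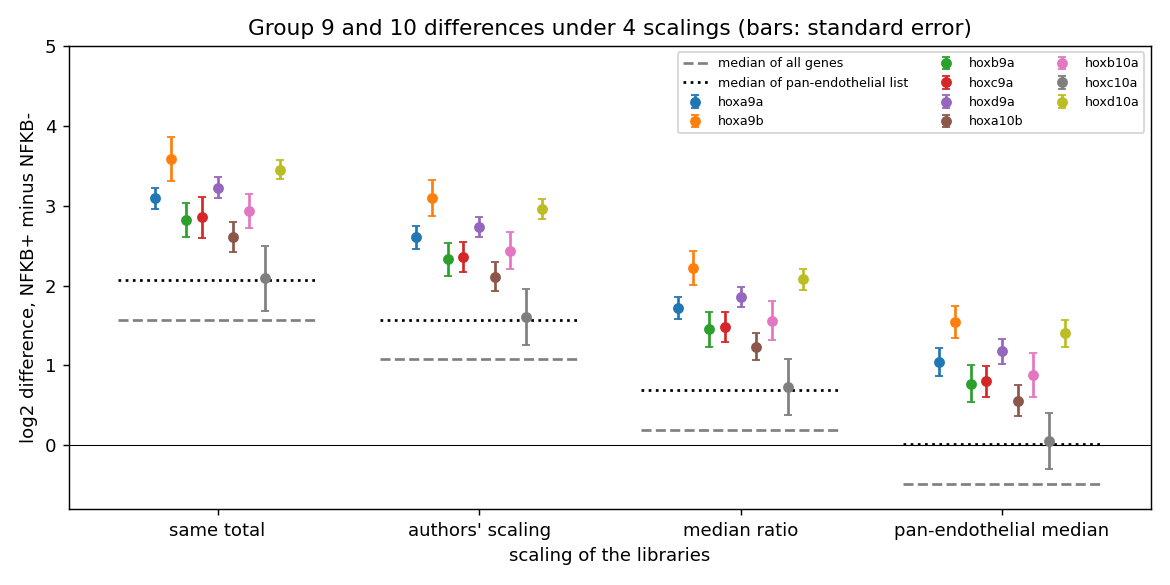
Log2 difference (NFKB+ minus NFKB-) with its standard error for the 9 genes under 4 scalings of the libraries, with the median of all genes (dashed) and of the pan-endothelial list (dotted). The genes keep an order with hoxa9b highest and hoxc10a lowest; scaled to the pan-endothelial median, hoxa9b lies at 1.54 and hoxc10a at 0.06.

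Other trunk tissues in which posterior hox genes are active were read from short marker lists. None of the 20 somite and muscle genes listed was among the genes analysed. The table holds only genes that differ by at least 2-fold, so transcripts at like levels in both sorts could not appear. A missing marker is therefore no sign that its tissue was absent. Of 26 neural genes 4 were, with zic2a and isl2a higher at 1.58 and 1.43 and sox19b and sox1a lower at -1.41 and -2.19. Summed normalized reads of these 4 ranged from 6925 to 8133 in NFKB+ and from 2312 to 3764 in NFKB- libraries, most of them from zic2a. Of 24 mesenchyme genes 10 were in the table and 8 of these were higher, led by foxf2a at 2.23 and fbln1 at 2.19. Their summed normalized reads ranged from 45184 to 47166 in NFKB+ and from 20933 to 24784 in NFKB- libraries. All 6 epidermis genes in the table, of 20 listed, were higher in NFKB+ cells, with summed normalized reads from 4427 to 7773 in NFKB+ and from 1913 to 2883 in NFKB- libraries. Of 14 pronephros genes 4 were in the table and 3 of these were lower. Their sums, most of them from atp1b1a, ranged from 42272 to 48359.8 in NFKB+ and from 19859 to 23345 in NFKB- libraries. The part of these tissues in the hox differences was not tested.

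Some genes that act with or upstream of posterior hox genes were in the table, which held 2433 of 27039 RefSeq protein-coding genes. Of 14 cofactor genes of the PBX, MEIS and PREP families, pbx1a and pknox2 were listed, both higher in NFKB+ cells. The normalized reads of pbx1a were 914, 901 and 823 in NFKB+ libraries, against 362, 391 and 320.3 in NFKB- libraries, a log2 difference of 1.30 ± 0.17 (SE). That of pknox2 was 1.27 ± 0.19 (SE). Of 21 caudal axis genes 4 were listed, 2 in each direction. The normalized reads of cdx4, which acts upstream of hox genes in zebrafish blood formation, were 695, 598 and 602 in NFKB+ libraries, against 244, 209.8 and 187 in NFKB- libraries. The sorts did not overlap, and its log2 difference was 1.56 ± 0.19 (SE). The zinc finger factor gene sall4 had one of 1.43 ± 0.14 (SE). The T-box gene tbx6l and the growth factor gene fgf17 were lower in NFKB+ cells, at -2.64 ± 0.14 and -2.57 ± 0.45 (SE).

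Retinoic acid, which acts through nuclear receptors, sets the anterior limits of many hox genes. Of 25 listed genes of this pathway 5 were in the table. The receptor genes rargb, rxraa, raraa and rarga were higher in NFKB+ cells, with log2 differences of 2.72 ± 0.50, 2.43 ± 0.16, 1.54 ± 0.13 and 1.01 ± 0.11 (SE). The retinoic acid binding protein gene crabp1b was lower, at -1.28 ± 0.27 (SE). Of these, rargb had 81.0, 93.5 and 52.6 normalized reads in NFKB+ libraries, against 5.64, 12.5 and 15.3 in NFKB- libraries, and is the least precise.

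Over the 6 libraries, the non-hox genes whose log2 values correlated best with the mean of the 9 genes were kif7, snx8, comp, mmp2 and uri1. Pearson's r was 0.999 for each of them. An r of 0.99 or more was reached by 393 of the 2448 non-hox genes (16.1%), since the table holds genes that separate the sorts. Their log2 differences were 1.23, 2.22, 1.65, 2.06 and 1.05. Of the 9 genes themselves, r with their mean was highest for hoxd9a at 0.998 and lowest for hoxc10a at 0.912.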

How the data were processed

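RNA of sorted cells was made into low-input libraries, 3 per sort. Tools listed in the submitters' processing notes are cutadapt, STAR, HTSeq and DESeq2, with the build danRer10; for the annotation the sources used here give nothing. The authors deposited, per the file headers, a log2 value per library, a log2 fold change, a signed fold score, p-values and an average per gene. Taking 2 to the power of a value minus 1 gave whole reads after division by 1 library-specific step, to within 0.1 read, in 100% of values under 1000, so the authors' log2 values are log2(normalized reads + 1). Every analysed row had passed 2-fold and adjusted p 0.01. Of 2475 rows, 4 were left out because mafba and efna2a had 2 rows each, which left 2471 genes. The table's reads per library ranged from 8393822 to 15165090; these are not library depths. Counting reads alone gives these genes a CV from 1.56% (hoxd9a) to 6.66% (hoxc10a) in NFKB+ and from 4.37% (hoxd9a) to 12.3% (hoxc10a) in NFKB- libraries. Libraries carry the column numbers 1 to 6, which are no replicate numbers.

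The comparison of the sorts used limma 3.58.1 (R 4.3.3, lmFit, eBayes with trend) over all 2471 genes. It had Benjamini-Hochberg adjustment at 0.05, no filter and no covariate. The code was run on simulated data in which most genes did not change. That setting differs from this table of selected genes, so the run does not check the fit here. Differences are NFKB+ minus NFKB-. The genes and gene lists were chosen with earlier results of these data known. A working list of names had 8 genes; hoxc10a was added because the rule finds it. Named besides the 9 genes are their listed hox neighbours, the hox genes with the highest and lowest difference, the 5 best correlated other genes, all cofactor, caudal, retinoic acid and Polycomb list members in the table except 1 that is not reported here, and the leading members of the marker lists. Gene order and the 2444 matched gene IDs are from RefSeq, GRCz12tu; as the build differs, no coordinates are given.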

Additional observations from a re-analysis of the deposited data

How the results depend on the processing

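The 9 genes kept their direction under all 14 alternatives run, and 124 of 126 values kept their call, which the authors' selection largely fixes. The exceptions were hoxc10a with median ratios (0.73, adjusted p = 0.0712) and with the pan-endothelial median (0.06, adjusted p = 0.904), within a range of limma adjusted p from 0.000144 over its alternatives. All 9 genes were called higher under the authors' scaling (54.5% of all genes), 8 with median ratios (37.2%) and 8 with the pan-endothelial median (7.32%). The median log2 difference of the 9 genes, 2.44, was 2.93 with the same total, 1.56 with median ratios, 0.89 with the pan-endothelial median, 2.57 with sample weights and 2.52 without hoxc10a. The median of all genes shifted by 0.49, -0.88 and -1.55 under the 3 scalings. Since a scaling moves all genes by nearly the same amount, the median of the 9 genes stayed 1.36 above it by construction, which is no result. Leaving out 1 library at a time gave medians from 2.38 to 2.59. The 9 differences then ranged from 1.198 for hoxc10a to 3.31 for hoxa9b, without NFKB- libraries 6 and 4. Leaving out hoxc10a, and limma-voom on recovered reads, which gave a median of 2.48, were chosen after seeing the data. No paired analysis was possible because column numbers run from 1 to 6 over both sorts and match no labelled replicate. No replicate block was therefore run. The planned search for promoter motifs was not run either, as no promoter sequences were available.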

Other observations

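Polycomb and trithorax genes, whose products keep hox genes off or on, were listed with 33 members. The 4 in the table were lower in NFKB+ cells, as were 45.5% of all its genes. The other listed genes were not in the table, which holds only genes that differ between the sorts. Any part of these genes in the hox differences was not tested. The largest difference was that of pcgf5a, at -1.82 ± 0.44 (SE), with 15.6, 20.4 and 45.6 normalized reads in NFKB+ libraries, against 74.5, 88.1 and 108 in NFKB- libraries. The Polycomb reader gene cbx8b had a log2 difference of -1.13 ± 0.18 (SE). The menin gene men1, whose product works with trithorax-type methyltransferases, had one of -1.26 ± 0.13 (SE). Its normalized reads were 2239, 2843 and 2165 in NFKB+ libraries, against 5263, 5461 and 6586 in NFKB- libraries, without overlap.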
